A study of Homo sapiens with 6 samples.

Results

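The genes described here encode the aminoacyl-tRNA synthetases and the proteins that hold some of them together. They were chosen by name from a fixed list of 39 gene names, and all 39 were found once each among the 58735 genes of the table: 20 cytosolic enzymes or enzyme subunits, 3 non-enzymatic proteins of the multi-synthetase complex, and 16 mitochondrial enzymes, whose names end in 2. AIMP2 also ends in 2 but is a complex protein, so it was kept out of the mitochondrial group. RNA sequencing had been done on 6 libraries labelled BxPC-3, an established human pancreatic cancer cell line. In 3 libraries the cells are the control group (DMSO in the library titles), and in 3 they had been given GSK3326595, a small-molecule inhibitor of the arginine methyltransferase PRMT5. Neither dose nor length of treatment is stated in the sources used here. The series describes its design as a knockdown, but the labels of all 6 libraries name the inhibitor. No label tells if the 3 libraries of each group were separate cultures, and the p-values cover the spread of these libraries alone, which may be technical. These are bulk samples, so fewer cells of a kind and less RNA per cell cannot be told apart.

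Each synthetase joins 1 amino acid to its matching tRNA, the step that sets the meaning of the genetic code, and the charged tRNA is then handed to the ribosome. Human cells run the reaction in the cytosol and again in the mitochondrion, mostly with separate nuclear genes; GARS and KARS each give both forms of their enzyme. In the cytosol, several synthetases are bound into the multi-synthetase complex by the proteins AIMP1, AIMP2 and EEF1E1. Many cytosolic synthetase genes are known targets of ATF4, the transcription factor made when amino acids run short, which binds a sequence called the C/EBP-ATF response element.

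The libraries held 14087260 to 15724750 reads, recovered from the FPKM values. PRMT5 itself had 23.2, 24.6 and 26.2 FPKM in the DMSO libraries against 13.4, 12.8 and 12.1 FPKM in the inhibitor libraries. Inhibitor replicate 2 stood apart: its log values over the 13578 genes tested (genes are not replicates) correlated at r = 0.906 and r = 0.904 with those of inhibitor replicates 1 and 3, which correlated at r = 0.980 with each other. Transcripts of the mitochondrial genome made up 11.3% of its reads, beside 5.84% and 6.03% in the other inhibitor libraries and 4.70% to 5.01% in DMSO. Counts of called genes are therefore also given without it. Among 10 markers of ductal epithelium, KRT19 and CEACAM6 are listed at 0 in every library and EPCAM and CDH1 stayed under 1 FPKM. EEF1G, an elongation factor gene that every cell uses, is listed at 0 in all 6 libraries too, so a listed 0 cannot be read as absent expression. EPCAM and CDH1 are not such zeros: they had 4 to 14 and 8 to 47 reads per library. Of the 10 markers, 5 were under 1 FPKM in every library. The cell line was taken from the labels. EPCAM and CDH1 under 1 FPKM go against an epithelial line, while the levels of KRT7, KRT8 and KRT18 go with one. These markers therefore do not settle the cell line. KRT7 was called lower (163 to 103 FPKM) and MUC1 higher (21.8 to 48.3 FPKM), while KRT8 (264 and 361 FPKM), KRT18 (255 and 364 FPKM) and SOX9 (3.67 and 2.27 FPKM) were not called. The summed level of these 10 markers was 676 to 756 FPKM in DMSO and 791 to 1043 FPKM in the inhibitor libraries. Most of it came from KRT7, KRT8 and KRT18. The 8 fibroblast and mesenchymal markers summed to 63.4 to 71.2 FPKM and 81.6 to 103 FPKM, mostly from VIM, with COL1A2, LUM and PDGFRA listed at 0; PDGFRB was called higher (1.03 to 4.65 FPKM). The 8 leukocyte and endothelial markers summed to 1.71 to 2.12 FPKM in DMSO and 1.18 to 1.65 FPKM in the inhibitor libraries, with CD3E and LYZ listed at 0. Most of the DMSO sum came from CDH5, which was called lower (1.24 to 0.339 FPKM) on 17 to 125 reads per library. The part of these differences in the results below was not tested.

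In DMSO the cytosolic enzymes were the more abundant group by FPKM, which divides reads by the listed gene length. Their mean level in DMSO ran from 10.7 FPKM for CARS (cysteine) to 82.8 FPKM for AARS (alanine), with a median of 39.1 FPKM over the 20 genes. The 3 complex proteins stood at 20.0 FPKM for AIMP2, 14.1 FPKM for AIMP1 and 5.68 FPKM for EEF1E1. The 16 mitochondrial enzymes had a median of 7.64 FPKM, from 1.44 FPKM for SARS2 (serine) to 61.8 FPKM for IARS2 (isoleucine). IARS2 was the exception in its group: the next most abundant mitochondrial enzyme, HARS2 (histidine), stood at 16.2 FPKM. After AARS, the highest cytosolic levels were those of TARS (threonine, 76.8 FPKM), GARS (glycine, 74.0 FPKM) and EPRS (65.8 FPKM), which carries the glutamate and the proline enzyme in 1 protein. All 39 genes passed the filter of 1 FPKM in at least 3 of the 6 libraries, so all could be tested. The lowest read counts behind a value were those of SARS2, with 16 to 85 reads per library, and PARS2 (proline), with 54 to 164. Together the 39 genes took 0.506% to 0.526% of the reads in DMSO, and 0.543%, 0.661% and 0.535% in inhibitor replicates 1, 2 and 3.

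**Figure D1:**
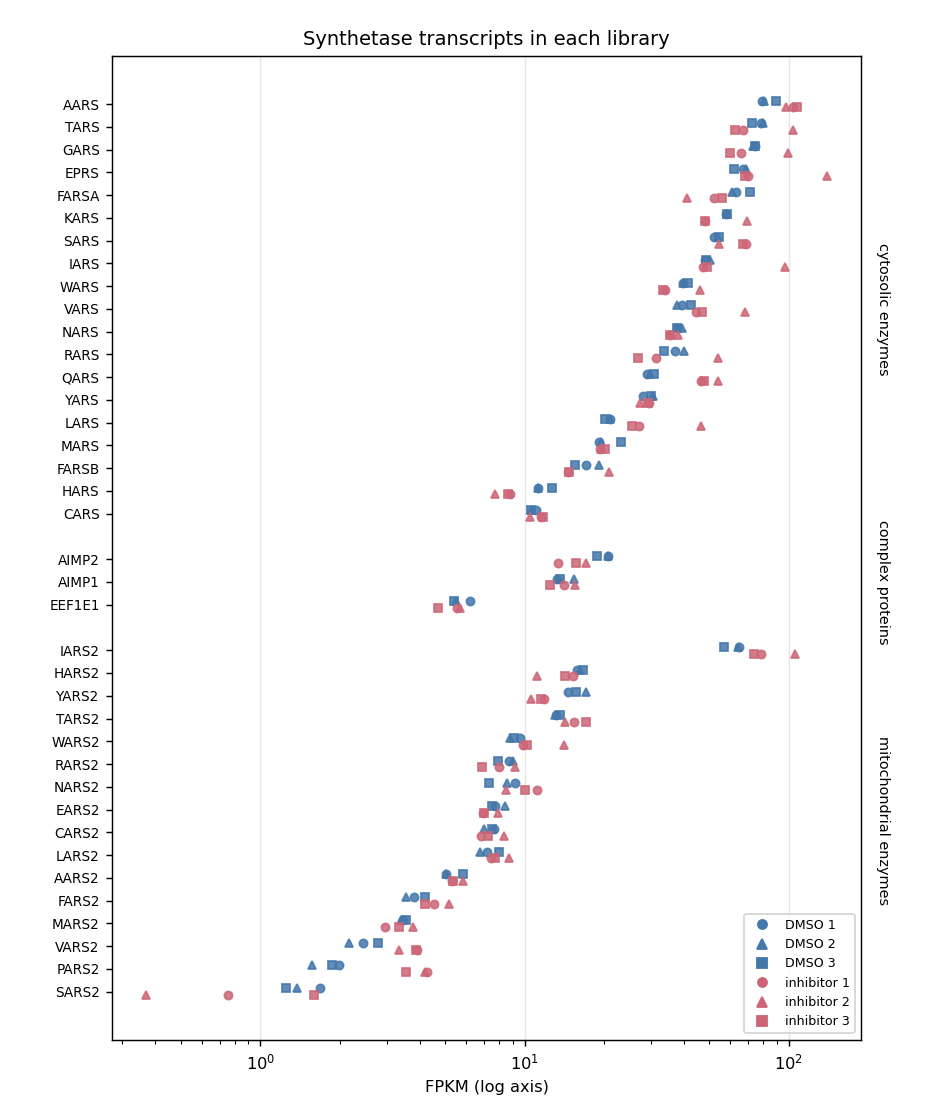
FPKM (log axis) of 38 of the 39 genes in each library, DMSO in blue and inhibitor in red, 1 symbol per replicate number, ordered within each group by the DMSO mean. The DMSO means of the cytosolic enzymes lie between 10.7 and 82.8 FPKM and those of most mitochondrial enzymes lie below that range. IARS2 (61.8 FPKM), HARS2 (16.2 FPKM), YARS2 (15.8 FPKM) and TARS2 (13.2 FPKM) lie within it. The triangles of inhibitor replicate 2 often stand apart.

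Promoters of 7 cytosolic genes and 1 mitochondrial gene hold the same short word, which the choice of members did not use. RefSeq promoter windows (GRCh38.p14, 250 bases before to 50 after each listed start) were found for 33 of the 39 genes; LARS, VARS, YARS, AARS2 and VARS2 have no entry. Both strands were searched for TGATGNAA, the core of the C/EBP-ATF response element. It was present for 7 of 16 cytosolic enzymes (43.8%), 1 of 14 mitochondrial enzymes (7.14%) and 0 of 3 complex proteins. Of all 35116 windows 3.62% held it, as did those of 2.43% of the 9118 genes tested that have a window, where a gene counted if any of its windows did. Each match follows in 30 bases on the strand of its gene, 5′ to 3′, with the 8 matching bases in capitals, because the repeated word can be seen only in the letters themselves.
AARS (chr16:70289675-70289704, minus strand): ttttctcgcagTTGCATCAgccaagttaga
CARS (chr11:3057407-3057436, minus strand): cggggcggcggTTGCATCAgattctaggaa
IARS (chr9:92293692-92293721, minus strand): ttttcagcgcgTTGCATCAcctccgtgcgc
MARS (chr12:57488053-57488082, plus strand): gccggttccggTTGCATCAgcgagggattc
TARS (chr5:33440956-33440985, plus strand): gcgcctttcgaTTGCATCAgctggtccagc
NARS (chr18:57621804-57621833, minus strand): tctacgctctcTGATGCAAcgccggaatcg
GARS (chr7:30594834-30594863, plus strand): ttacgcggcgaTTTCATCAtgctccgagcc
YARS2 (chr12:32756076-32756105, minus strand): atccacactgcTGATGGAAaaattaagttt

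AARS, CARS, IARS, MARS and TARS held the identical bases TTGCATCA, and NARS held the same word read from the other strand, TGATGCAA. GARS and YARS2 each held a variant at the free position. In CARS, MARS and TARS the match began within 4 bases of a listed start, in IARS 13 and in GARS 33 bases before it, and in NARS 14 bases after it. In AARS and YARS2 it lay farther upstream, 187 and 197 bases before the start. A match is a description of the letters and not evidence of binding.

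Few synthetase genes were called different between inhibitor and DMSO, and those that were went both ways. Of the 39, 4 were called at an adjusted p under 0.05 (limma on log2(FPKM + 1), Benjamini-Hochberg over all genes tested), or 10.3%, where 17.2% of all 13578 genes were. QARS (glutamine, cytosolic) and PARS2 (proline, mitochondrial) rose, and HARS (histidine, cytosolic) and YARS2 (tyrosine, mitochondrial) fell, so each compartment had 1 rise and 1 fall. Over all genes 7.18% were called higher and 10.0% lower. The median log2 fold change was −0.02 for the 20 cytosolic and 0.08 for the 16 mitochondrial enzymes, beside −0.05 for all genes tested. The cytosolic median was above 0 with quantile normalization (0.16), with limma-voom (0.0464) and with the gene length trend removed (0.0713). At an unadjusted p under 0.05 there were 11 of the 39, where 34.6% of all genes were. Fold changes on this scale understate the change of low genes.

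QARS, which charges the glutamine tRNA, had the largest change among the cytosolic enzymes. It had 28.9, 29.7 and 30.9 FPKM in the DMSO libraries against 46.4, 54.1 and 47.5 FPKM in the inhibitor libraries. The groups did not overlap and replicate 2 was the highest of the inhibitor libraries. The mean rose by 65.3%, from 29.8 ± 0.980 to 49.3 ± 4.14 FPKM (SD, n = 3 each). Its log2 fold change was 0.70 (SE 0.11; limma, adjusted p = 0.0115). QARS (ENSG00000172053, chromosome 3, 49095932 to 49105135, hg38, minus strand) shares no bases with another gene that reached 1 FPKM in any library. At the threshold of 0.05 it was called in 14 of 17 alternatives, all but those without DMSO replicate 1, 2 or 3 (highest adjusted p = 0.0760); at a threshold of 0.01 it was not called.

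PARS2, the mitochondrial proline enzyme, more than doubled from a low level. It had 1.99, 1.57 and 1.87 FPKM in the DMSO libraries against 4.26, 4.20 and 3.55 FPKM in the inhibitor libraries, again with no overlap. The ratio of the means was 2.21 (1.81 ± 0.215 against 4.01 ± 0.393 FPKM; SD, n = 3 each), while the log2 fold change was 0.83 (SE 0.12; limma, adjusted p = 0.00968). PARS2 (ENSG00000162396, chromosome 1, 54756898 to 54764514, minus strand) overlaps no other gene at 1 FPKM. It was called in 13 of 16 alternatives, all but those without 1 of the DMSO replicates (highest adjusted p = 0.0568). With the filter at 5 FPKM it was not tested.

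HARS, the cytosolic histidine enzyme, was lower in every inhibitor library. It had 11.3, 11.3 and 12.7 FPKM in the DMSO libraries against 8.77, 7.72 and 8.63 FPKM in the inhibitor libraries. The mean fell by 28.6%, a log2 fold change of −0.44 (SE 0.11; limma, adjusted p = 0.0394). HARS (ENSG00000170445, chromosome 5, 140673904 to 140691862, minus strand) overlaps 2 genes on the opposite strand: HARS2, its mitochondrial counterpart, over 437 bases, and WDR55 over 221 bases. The use of strand in counting is not stated, and WDR55 fell by 0.66 on the log2 scale (adjusted p = 0.0428); its part in the HARS values was not tested. HARS2 had 15.8, 16.2 and 16.6 FPKM in the DMSO libraries against 15.2, 11.2 and 14.2 FPKM in the inhibitor libraries, a log2 fold change of −0.25 that did not pass the test (SE 0.14, adjusted p = 0.239).

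YARS2, the mitochondrial tyrosine enzyme, was lower too. It had 14.6, 17.04 and 15.7 FPKM in the DMSO libraries against 11.8, 10.6 and 11.5 FPKM in the inhibitor libraries, with no overlap. The mean fell by 28.4%, a log2 fold change of −0.45 (SE 0.11; limma, adjusted p = 0.0393). YARS2 (ENSG00000139131, chromosome 12, 32727490 to 32755902, minus strand) shares 18161 bases with DNM1L on the opposite strand, whose own log2 fold change was 0.05 (adjusted p = 0.904). HARS was called in 8 and YARS2 in 6 of the 17 alternatives. Leaving out any 1 library except inhibitor replicate 2 ended both (highest adjusted p, 0.146 for HARS and 0.166 for YARS2).

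**Figure D2:**
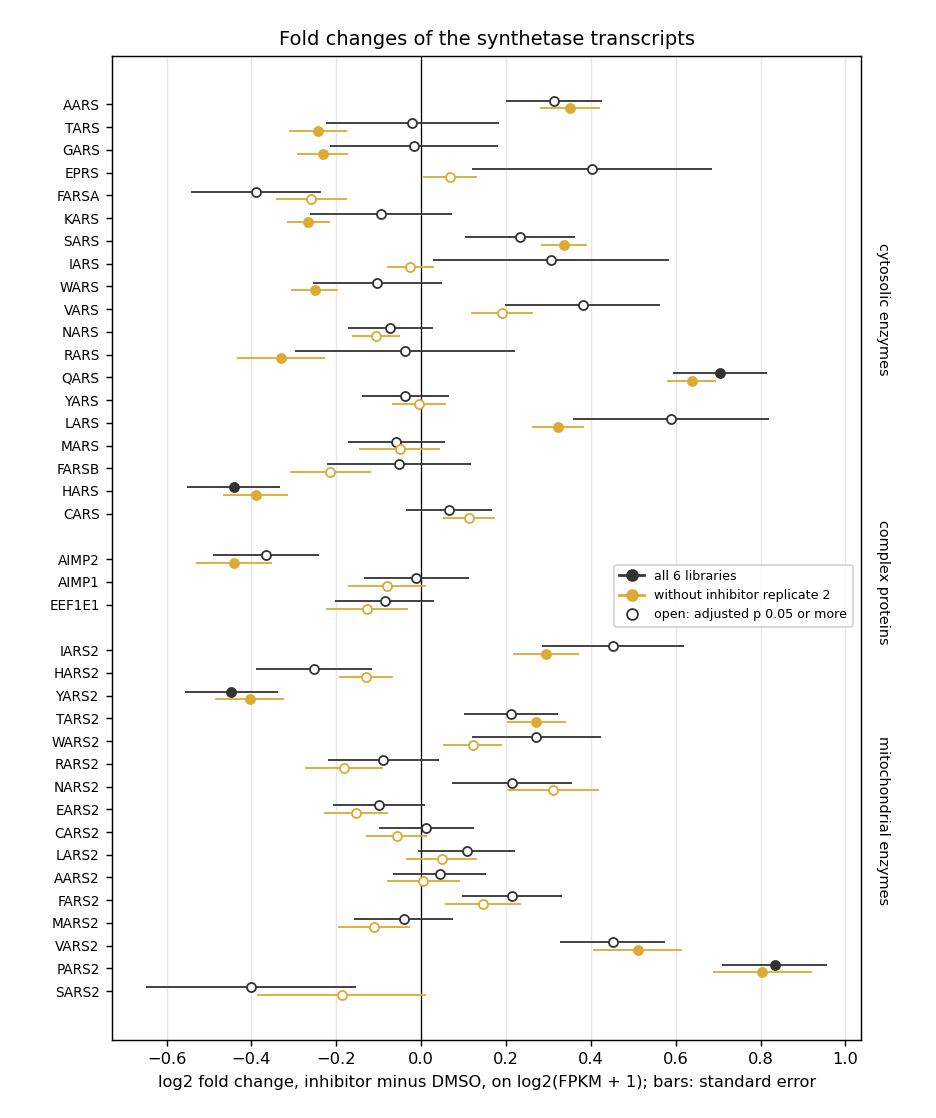
Log2 fold change (inhibitor minus DMSO) of 38 of the 39 genes with its standard error, from all 6 libraries in black and without inhibitor replicate 2 in yellow; filled points have an adjusted p under 0.05 (limma). QARS at 0.70 and PARS2 at 0.83 lie farthest to the right, HARS at −0.44 and YARS2 at −0.45 farthest to the left among the filled black points.

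Leaving out single libraries changed these counts. Without inhibitor replicate 2, 17 of the 39 were called, 9 higher and 8 lower, where 40.6% of all genes were (17.5% higher and 23.1% lower). The 4 genes above were among them with the same signs. Without DMSO replicate 1, 2 or 3, limma called 0 of the 39, where only 478, 510 and 579 of all 13578 genes were called. Without inhibitor replicate 1 or 3 it called only QARS and PARS2, where 1091 and 1299 of all genes were called. The 3 inhibitor libraries lay wholly above or below the 3 DMSO libraries for 16 of the 39 genes, 11 higher and 5 lower, where 45.9% of all genes did (19.2% higher and 26.7% lower).

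Among the 8 cytosolic enzymes of the multi-synthetase complex, inhibitor replicate 2 stood apart. For 7 of the 8 it was the highest of all 6 libraries, where it was the highest for 30.7% of all genes tested. EPRS, the glutamate and proline enzyme, stood at 66.8, 68.6 and 62.2 FPKM in DMSO against 69.8, 139 and 68.1 FPKM in inhibitor replicates 1, 2 and 3. IARS (isoleucine) had 48.2, 50.4 and 48.5 FPKM in the DMSO libraries against 47.3, 96.8 and 49.1 FPKM in the inhibitor libraries. In both genes inhibitor replicates 1 and 3 lay close to DMSO and replicate 2 stood apart, at 2.02 and 2.01 times the mean of those 2. RARS (arginine) had 36.9, 40.1 and 33.5 FPKM in the DMSO libraries against 31.5, 54.0 and 26.8 FPKM in the inhibitor libraries, so replicates 1 and 3 lay below the DMSO libraries and replicate 2 above them. Its log2 fold change was −0.04 with all libraries and −0.33 without replicate 2 (limma, adjusted p = 0.0490). KARS (lysine) had the same form, 57.6 to 58.4 FPKM in DMSO and 48.2, 69.1 and 48.0 FPKM in the inhibitor libraries.

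LARS (leucine) was higher in all 3 inhibitor libraries, replicate 2 most of all. It had 21.0, 21.1 and 20.2 FPKM in the DMSO libraries against 27.0, 46.3 and 25.4 FPKM in the inhibitor libraries. The groups did not overlap, and with all libraries it was not called (0.59, adjusted p = 0.126). Without replicate 2 it was called higher, at 0.32 (adjusted p = 0.00979). MARS (methionine) was the exception in the complex, at 19.3, 19.4 and 20.2 FPKM against 19.1 to 23.1 FPKM in DMSO. Summed over the 8 genes the level was 290 to 301 FPKM in DMSO and 308, 510.0 and 302 FPKM in inhibitor replicates 1, 2 and 3.

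In the 12 cytosolic enzymes outside the complex, replicate 2 was the highest of all 6 libraries for 5. Their summed level was 531 to 552 FPKM in DMSO and 535, 614 and 534 FPKM in the inhibitor libraries. In replicate 2 the median ratio to the DMSO mean was 1.08 for these 12 genes and 1.89 for the 8 of the complex; in replicates 1 and 3 the medians were 0.909 and 0.892 against 1.01 and 1.02. The difference between the sets was not tested. The listed gene lengths were 3421 to 8118 bases in the complex and 2435 to 10037 outside it. The part of length in this difference was not tested.

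**Figure D3:**
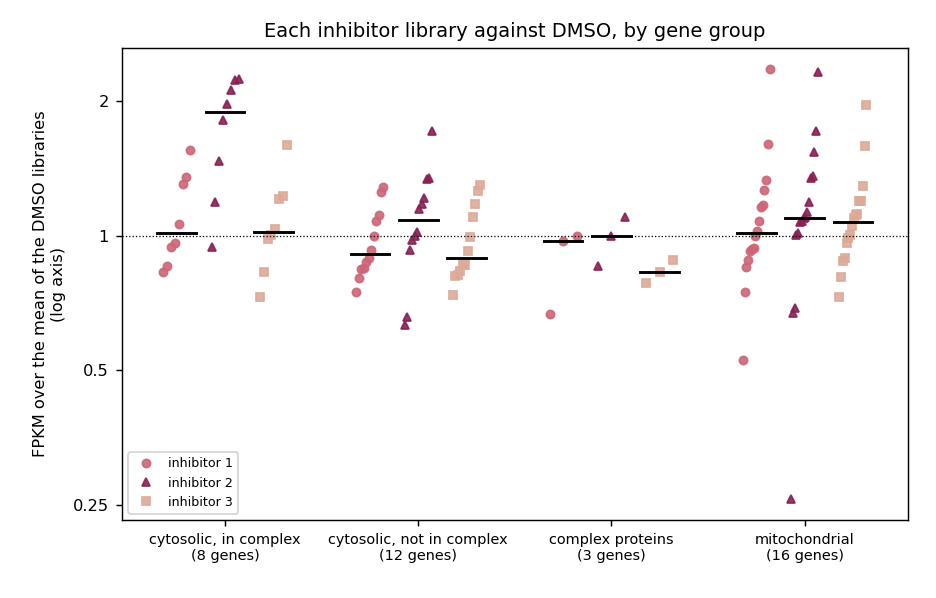
FPKM in each inhibitor library divided by the DMSO mean of the gene (log axis), for 4 groups of genes; each point is 1 gene and each bar the median. Inhibitor replicate 2 has a median of 1.89 for the 8 cytosolic enzymes of the complex and 1.08 for the other 12, while the medians of replicates 1 and 3 lie between 0.830 and 1.07 in every group.

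Outside the complex, HARS was the only enzyme called with all libraries. AARS (alanine), at 79.2, 80.1 and 89.0 FPKM in DMSO and 104, 97.6 and 108 FPKM in the inhibitor libraries, did not overlap between groups and had a log2 fold change of 0.31, with no call (adjusted p = 0.106). SARS (serine) was at 52.0 to 54.6 FPKM in DMSO against 68.5, 54.4 and 67.1 FPKM in the inhibitor libraries, so here replicate 2 was the one that lay with DMSO. AARS and SARS were called higher without replicate 2 (0.35, adjusted p = 0.0114, and 0.34, adjusted p = 0.00563), with quantile normalization and with the gene length trend removed. GARS, TARS and WARS (tryptophan) were lower in inhibitor replicates 1 and 3 and higher in replicate 2. GARS had 73.4 to 74.3 FPKM in the DMSO libraries against 65.8, 98.8 and 60.01 FPKM in the inhibitor libraries. Without replicate 2 these 3 were called lower, at −0.23 for GARS, −0.24 for TARS and −0.25 for WARS (adjusted p = 0.0278, adjusted p = 0.0332 and adjusted p = 0.0155), as was KARS in the complex (−0.27, adjusted p = 0.00984).

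The 2 subunits of the cytosolic phenylalanine enzyme, which work as a pair, did not have the same values. FARSA had 62.8, 61.0 and 71.1 FPKM in the DMSO libraries against 52.2, 41.0 and 55.9 FPKM in the inhibitor libraries, with no overlap and no call (−0.39, adjusted p = 0.126). FARSB was at 15.4 to 19.1 FPKM in DMSO against 14.5, 20.9 and 14.7 FPKM in the inhibitor libraries (−0.05, adjusted p = 0.853). FARSA was therefore the more abundant transcript by FPKM in every library. VARS (valine) was at 37.8 to 42.7 FPKM in DMSO against 44.3, 68.3 and 47.0 FPKM in the inhibitor libraries (0.38, adjusted p = 0.193). Of the genes that shared bases with another gene at 1 FPKM (19 of the 39, 17 of them on the opposite strand), MARS overlaps the stress gene DDIT3 over 982 bases; the log2 fold change of DDIT3 was −0.73 (adjusted p = 0.254). CARS, NARS (asparagine) and YARS (tyrosine) overlapped between groups, with log2 fold changes between −0.07 and 0.07.

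Of the 3 complex proteins, limma called 0, with 1 at an unadjusted p under 0.05 and 0 by limma-voom on recovered reads. AIMP2, the scaffold at the core of the complex, had 20.7, 20.6 and 18.9 FPKM in the DMSO libraries against 13.4, 17.1 and 15.7 FPKM in the inhibitor libraries. Its groups did not overlap, and its log2 fold change was −0.37 (adjusted p = 0.0917), or −0.44 without replicate 2 (adjusted p = 0.0116). AIMP2 shares 1591 bases with EIF2AK1 on the opposite strand, which rose by 0.49 on the log2 scale (adjusted p = 0.0258). AIMP1 (−0.01) and EEF1E1 (−0.09) overlapped between groups.

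Among the mitochondrial enzymes, 10 of the 16 log2 fold changes lay above 0 and 6 below, where 6149 of all genes lay above and 7429 below. The mitochondrial median was 0.0754 with all libraries and 0.0265 without replicate 2. IARS2 had 64.6, 64.1 and 56.8 FPKM in the DMSO libraries against 78.2, 106 and 73.7 FPKM in the inhibitor libraries, with no overlap (0.45, adjusted p = 0.109). VARS2, the mitochondrial valine enzyme, lay just outside the threshold: 2.44, 2.16 and 2.77 FPKM in DMSO against 3.93, 3.34 and 3.89 FPKM in the inhibitor libraries (0.45, adjusted p = 0.0522). It was called by limma-voom and without replicate 2 (0.51, adjusted p = 0.0120). TARS2 (threonine) was at 13.05 to 13.6 FPKM in DMSO against 15.4, 14.2 and 17.04 FPKM in the inhibitor libraries (0.21, adjusted p = 0.223). Both IARS2 and TARS2 were called higher without replicate 2, and YARS2 was the single mitochondrial enzyme called lower there.

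None of the remaining mitochondrial enzymes was called, with or without inhibitor replicate 2. WARS2 (tryptophan) had 9.57, 8.77 and 9.15 FPKM in the DMSO libraries against 9.88, 14.1 and 10.2 FPKM in the inhibitor libraries, and FARS2 (phenylalanine) had 3.56 to 4.18 and 4.21 to 5.18 FPKM; neither overlapped and neither was called (0.27, adjusted p = 0.256, and 0.21, adjusted p = 0.249). SARS2 had the largest standard error of the mitochondrial enzymes, on 16 to 85 reads per library. It was at 1.25 to 1.68 FPKM in DMSO against 0.755, 0.370 and 1.59 FPKM in the inhibitor libraries (−0.40, SE 0.25, adjusted p = 0.295). NARS2 (asparagine) ran from 7.30 to 9.21 FPKM in DMSO and from 8.48 to 11.1 FPKM in the inhibitor libraries (0.22, adjusted p = 0.324). AARS2, CARS2, EARS2, LARS2, MARS2 and RARS2 overlapped between groups, with log2 fold changes between −0.10 and 0.11 and standard errors of 0.11 to 0.13. EARS2 has a particular role, since mitochondria have no glutamine enzyme of their own: EARS2 loads glutamate onto the glutamine tRNA and an amidotransferase converts it.

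Each mitochondrial enzyme was set against the cytosolic enzyme for the same amino acid, as the ratio of the 2 FPKM values within a library, which does not change with the scaling of the library. In DMSO the cytosolic enzyme was the higher in every library for 14 of 16 pairs, with a median ratio of 5.21. The exceptions were IARS to IARS2, at 0.746 to 0.855, and HARS to HARS2, at 0.695 to 0.760. Both ratios depend on the listed gene lengths, 7401 and 4165 bases for IARS and IARS2, and 7853 and 3736 for HARS and HARS2. In reads per library the cytosolic gene had more, 5320 to 9592 against 3500 to 5901, and 811 to 1472 against 559 to 932. With the inhibitor the ratios lay wholly above DMSO for 4 pairs, wholly below for 4, and overlapped for 8. For single genes, 45.9% of all those tested did not overlap, and no such share was computed for ratios. The ratios are given as a description and were not tested.

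Some pairs separated with little spread over all 3 inhibitor libraries, replicate 2 included. YARS to YARS2 was 1.93, 1.80 and 1.91 in DMSO and 2.50, 2.60 and 2.55 with the inhibitor. WARS to WARS2 was 4.16, 4.52 and 4.52 in DMSO and 3.42, 3.27 and 3.28 with the inhibitor. These pairs went in opposite directions, 1.36 times the DMSO ratio for tyrosine and 0.756 times for tryptophan. The log2 fold changes behind them were −0.04 for YARS and −0.45 for YARS2, and −0.10 for WARS and 0.27 for WARS2. FARSA to FARS2 went from 16.4, 17.1 and 17.03 to 11.6, 7.91 and 13.3, and AARS to AARS2 from 15.7, 15.9 and 15.2 to 19.6, 16.7 and 20.2. EPRS to PARS2 went from 33.6, 43.6 and 33.2 to 16.4, 33.2 and 19.2, where replicate 2 lay only just under the lowest DMSO library. The other pairs without overlap were EPRS to EARS2 and LARS to LARS2, above DMSO, and HARS to HARS2, below it.

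**Figure D4:**
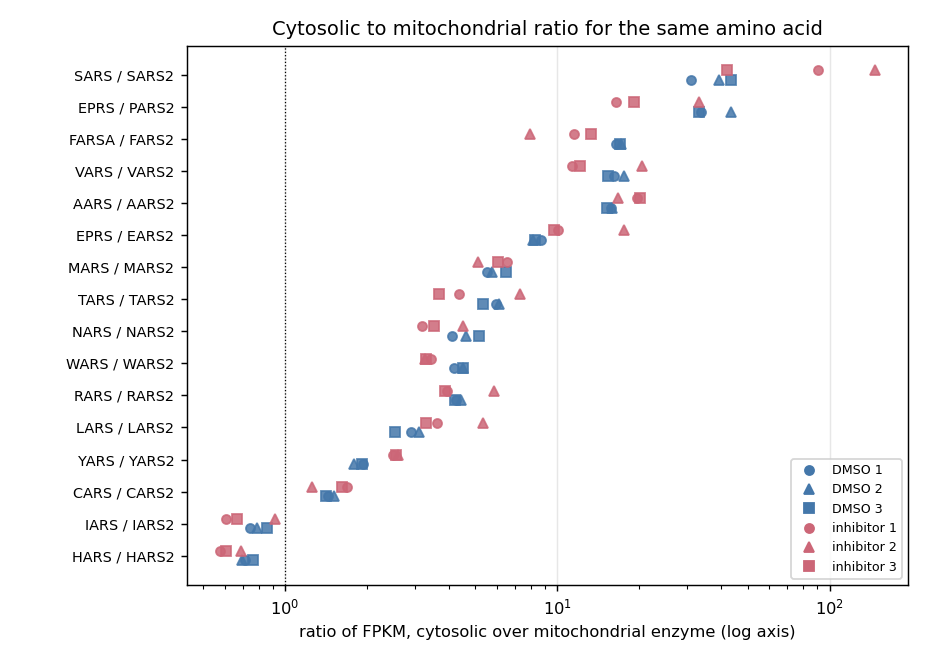
Ratio of the FPKM of the cytosolic to that of the mitochondrial enzyme (log axis) for 16 pairs in each library, DMSO in blue and inhibitor in red. HARS / HARS2 and IARS / IARS2 lie below 1; the YARS / YARS2 points separate at 1.80 to 1.93 against 2.50 to 2.60 and the WARS / WARS2 points at 4.16 to 4.52 against 3.27 to 3.42.

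The 7 cytosolic genes with the response element word were compared with the 9 that have a window without it, as a description. Those with the word had log2 fold changes from −0.07 (NARS) to 0.31 (AARS), a median of −0.02, and limma called 0 of them, with 1 at an unadjusted p under 0.05 and 0 by limma-voom. Those without it ran from −0.44 (HARS) to 0.70 (QARS), a median of −0.05, and 2 were called. Without inhibitor replicate 2 the medians were −0.05 and −0.25, with 3 of 7 and 6 of 9 called, where 40.6% of all genes were; with all libraries 17.2% were. ATF4 itself averaged 86.2 FPKM in the DMSO libraries and 61.1 FPKM in the inhibitor libraries; with all libraries it was not called (−0.54, adjusted p = 0.164), and without replicate 2 it was called lower (−0.27, adjusted p = 0.0247). Of 11 genes of ATF4 and the amino acid response, the amino acid transporter SLC7A5 (0.79) and the serine synthesis enzyme PSAT1 (0.46) rose and the stress pseudokinase TRIB3 fell by 0.72, while asparagine synthetase, ASNS, stood at 1.26 and 0.911 FPKM (−0.24, adjusted p = 0.257). Of the 11, 3 rose and 3 fell without replicate 2, and the list median was −0.24 with all libraries and −0.16 without replicate 2.

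Genes that make, handle or use tRNA were read from lists chosen by function. Of 21 genes tested for RNA polymerase III, which transcribes the tRNA genes, 3 fell and 0 rose: the initiation factor BRF2 (4.41 to 2.11 FPKM, −0.80), the polymerase subunit CRCP (−0.67) and the TFIIIC subunit GTF3C6 (−0.67). BRF1, another initiation factor of the list, was not called (0.06, adjusted p = 0.778 by limma). The list was not split by the genes each factor serves, so the fall of BRF2 is not a result about tRNA genes. The median of the 21 genes was −0.15, and −0.28 without replicate 2, where 10 fell and 2 rose. Of all genes, 10.0% were called lower with all libraries, and 23.1% lower and 17.5% higher without replicate 2; the counts of the other lists stand beside the same shares. Of 21 genes of tRNA processing and export, 1 was called: CLP1, a kinase bound to the tRNA splicing endonuclease, went from 9.95 to 5.30 FPKM and fell by 0.82 on the log2 scale. Their median was −0.21, and −0.19 without replicate 2, where 8 fell and 1 rose.

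On the side of translation, limma called 0 of the 8 cytosolic elongation genes tested, with 3 at an unadjusted p under 0.05 and 1 higher by limma-voom. EEF1A1, which carries charged tRNA to the ribosome, and EEF2, which moves the ribosome along, had the log2 fold changes 0.35 and 0.23 (adjusted p = 0.120 and adjusted p = 0.362). The list median was 0.10, and 0.19 without replicate 2, where 3 rose and 1 fell. Of 15 mitochondrial translation factors and amidotransferase subunits, 1 was called, the elongation factor TSFM, which fell by 0.41 on the log2 scale (11.3 to 8.29 FPKM). The 3 amidotransferase subunits that complete the EARS2 route had the log2 fold changes 0.35 (QRSL1), 0.14 (GATB) and 0.55 (GATC), none called; GATC was called higher without replicate 2 (0.41). The median of this list was 0.13, and −0.02 without replicate 2, where 1 rose and 2 fell. Of the 4 editing and hydrolysis genes tested limma called 0, with 1 at an unadjusted p under 0.05, 0 by limma-voom and 0 without replicate 2; the highest of them, PTRH2, which releases tRNA from stalled peptides, averaged 5.75 FPKM in DMSO and 4.39 FPKM in the inhibitor libraries (−0.33, adjusted p = 0.0994), and PTRHD1 2.14 and 2.15 FPKM (−0.09, adjusted p = 0.877).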

How the data were processed

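The deposited data are FPKM values per gene and library, in which the authors had divided reads by the gene length they list and by a scaling factor for each library. The FPKM steps gave back whole reads (100% of values above 0, within 0.01 reads). Libraries were made with a kit that keeps strand, per the labels' protocols; hg38 is named in the submitters' processing notes. Aligner, counter, annotation release and use of strand in counting: not given in the sources used here. Columns were assigned to libraries by title.

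limma 3.58.1 (R 4.3.3; mean-variance trend, two-sided, no block) was fitted to log2(FPKM + 1) of the 13578 genes that reached 1 FPKM in 3 or more libraries, with Benjamini-Hochberg adjustment over all of them and a threshold of 0.05. Members and lists were chosen with earlier results of these data known. All members could be named; 1 is not reported here by name and enters only the counts, medians and sums. From each related list, up to 4 called genes of lowest adjusted p were named, and in a list with no call the 2 genes of highest level. ATF4, ASNS, BRF1, DDIT3, EEF1G, WDR55, DNM1L, EIF2AK1 and the amidotransferase genes were named after their values were seen. Promoter sequences are RefSeq's (GRCh38.p14), matched through current symbols, with orientation checked against GENCODE transcripts. The test was tried on simulated data. The alternatives were: pseudocounts of 0.1 and 0.5; no filter; a filter at 5 FPKM; TPM or quantile scaling; a robust prior; no trend; a replicate block; a gene length trend taken out (loess, span 0.3); limma-voom on recovered reads; a threshold of 0.01; and each library left out.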

Additional observations from a re-analysis of the deposited data

How the results depend on the processing

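QARS and PARS2 kept their direction in every alternative, and so did HARS and YARS2. The calls of cytosolic enzymes (1 lower and 1 higher in the report) became 0 lower with no filter, with the replicate block, with limma-voom and with quantile normalization, and 3 higher with quantile normalization or the gene length trend removed; at a threshold of 0.01 they were 0 lower and 0 higher. Mitochondrial enzymes called lower became 0 with TPM scaling, no filter, the replicate block, quantile normalization, limma-voom, the length trend removed and the 0.01 threshold; those called higher became 0 with the filter at 5 FPKM and 2 with limma-voom. All genes called were 1533 with no filter, 1505 with the filter at 5 FPKM, 543 at 0.01 and 1478 with the replicate block. Same-numbered libraries deviated from their group means together at r = −0.018, 0.157 and 0.248. DMSO replicate 1 correlated best with inhibitor replicate 2, while DMSO replicates 2 and 3 correlated best with the inhibitor library of the same number. No label says that the numbers pair the libraries, and deviations from means of 3 libraries cannot settle it. With 1 library left out, all genes called ran from 478 to 5513, cytosolic enzymes called lower from 0 to 6 and higher from 0 to 5, and mitochondrial enzymes called lower from 0 to 1 and higher from 0 to 4. The mitochondrial median was 0.13 with the length trend removed, 0.15 with limma-voom, 0.14 with quantile normalization, and 0.0265 to 0.12 with 1 library left out. The median of all genes was −0.0035 with the length trend removed, −0.0085 with limma-voom and −0.0006 with quantile normalization. The cytosolic median ran from −0.0378 to 0.12 with 1 library left out. The cause was not tested.

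Several genes that were not called changed sign. With TPM scaling CARS2 was −0.02. With the length trend removed CARS was −0.0152, FARSB 0.072, GARS 0.0707, NARS 0.0181, RARS 0.0835, TARS 0.0307, AIMP1 0.12, EEF1E1 0.0887, CARS2 −0.0771, MARS2 0.10 and RARS2 0.0665. With limma-voom FARSB was 0.0051, GARS 0.0481, MARS 0.0043, RARS 0.0224, TARS 0.0446, YARS 0.0261, AIMP1 0.0515 and MARS2 0.0027. With quantile normalization FARSB was 0.10, GARS 0.15, KARS 0.0668, MARS 0.11, NARS 0.10, RARS 0.14, TARS 0.16, WARS 0.069, YARS 0.13, AIMP1 0.13 and EEF2 −0.17. With 1 library left out FARSB ran from −0.21 to 0.0332, GARS from −0.23 to 0.12, IARS from −0.0251 to 0.48, MARS from −0.11 to 0.0235, RARS from −0.33 to 0.16, TARS from −0.24 to 0.11, AIMP1 from −0.0808 to 0.0649, CARS2 from −0.0579 to 0.0679, MARS2 from −0.11 to 0.0276 and RARS2 from −0.18 to 0.0028. Depth limits SARS2 and PARS2 most.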
